A study of Mus musculus with 6 samples.

Results

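The genes described here are 7 C-type lectin receptors of myeloid cells, namely Clec7a, Clec4e, Clec4d, Clec4n, Clec4a2, Clec12a and Clec10a. They were taken by identity, as the rows of the deposited expression table that carry their Ensembl identifiers, and no measured value entered this rule. The list itself was chosen with earlier results of these data known. All 7 were present among the 27835 genes of the table. The 6 arrays, of the type Affymetrix Mouse Gene 2.0 ST, were hybridised with RNA of Kupffer cells, which are macrophages resident in the liver sinusoids. Each of 3 mice gave 1 array of embryonic Kupffer cells (eKC) and 1 array of monocyte-derived Kupffer cells (mKC). The mice were of the C57Bl/6 background and of the genotype CX3CR1-CreERT+/+ Stopfl/fl tdTomato, in which an inducible Cre recombinase is under the control of CX3CR1 and the tdTomato reporter lies behind a floxed stop. All of them had received a treatment abbreviated sRBC, so both populations come from treated animals and no untreated group was analysed here. Both were sorted as CD45+ CD11b- cells that also carried a macrophage surface antigen. The eKC gate was GFP- tdTomato+ and the mKC gate GFP+ tdTomato-, and the age of the mice is not given in the sources used here. Origin was assigned by the gate, so it cannot be told apart from other properties of the gated cells.

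C-type lectins of this group are surface receptors with which macrophages, monocytes, neutrophils and dendritic cells sense sugars and lipids of microbes and products of damaged cells. The activating receptors signal through the kinase Syk and the adaptor Card9, either directly or through the Fc receptor gamma chain, and induce inflammatory cytokines. The inhibitory receptors carry a tyrosine motif in their cytoplasmic tail that recruits phosphatases and damps such signals. Clec7a (Dectin-1) binds fungal beta-glucans, and Clec4n (Dectin-2) binds mannans. Clec4e (Mincle) binds mycobacterial cord factor and a protein released by dying cells, and Clec4d (Mcl) pairs with Clec4e on the cell surface. Clec4a2 (DCIR) and Clec12a (Micl) are inhibitory, and Clec10a (Mgl1, CD301a) is a receptor for galactose-type sugars. In the reference annotation, GRCm38.p6, 6 of the genes lie on chromosome 6 and Clec10a lies on chromosome 11. Clec4n, Clec4d and Clec4e follow each other there as neighbouring coding genes.

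Of the 7 lectins, 1 passed the test for a difference between the populations. Clec4e rose in mKC by 1.31 ± 0.159 on the log2 scale (SE, n = 3 animals), a 2.48-fold higher level with a 95% interval of 1.90 to 3.23 (limma, adjusted p = 0.016). Over all genes of the table, 1.82% passed the same threshold, an adjusted p under 0.05, and 0.995% passed it as higher in mKC. None of the 7 passed as lower in mKC, where 0.823% of all genes did, and at an unadjusted p under 0.05 in limma Clec4e was again the only one of the 7, against 11.7% of all genes. The median difference was 0.09 over the 7 lectins and -0.01 over all genes. The level of a sorted population does not separate more RNA per cell from a larger share of cells that hold the RNA.

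In eKC, Clec4e (ENSMUSG00000030142) read 4.41, 4.17 and 4.37 (log2 intensity) in animals 1, 2 and 3. In mKC of the same animals it read 5.56, 5.94 and 5.38. Every mKC array lay above every eKC array, and animal 2 had both the lowest eKC level and the highest mKC level. The group levels were 4.32 ± 0.128 in eKC and 5.62 ± 0.285 in mKC (SD, n = 3), and the differences within animals were 1.15, 1.76 and 1.01. A higher difference was measured for 74 of the 27835 genes. Clec4e was dim on these arrays. In eKC it lay below the array median, with 28.3% to 32.6% of all genes reading lower, and in mKC 52.7% to 59.9% read lower. The table holds no detection call, so an eKC level above background was not shown and the fold is uncertain to that extent. Without animal 3 the difference was 1.45 but did not pass (limma, adjusted p = 0.062). Without animal 1 it was 1.39 (limma, adjusted p = 0.041) and without animal 2 it was 1.08 (limma, adjusted p = 0.024).

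**Figure D1:**
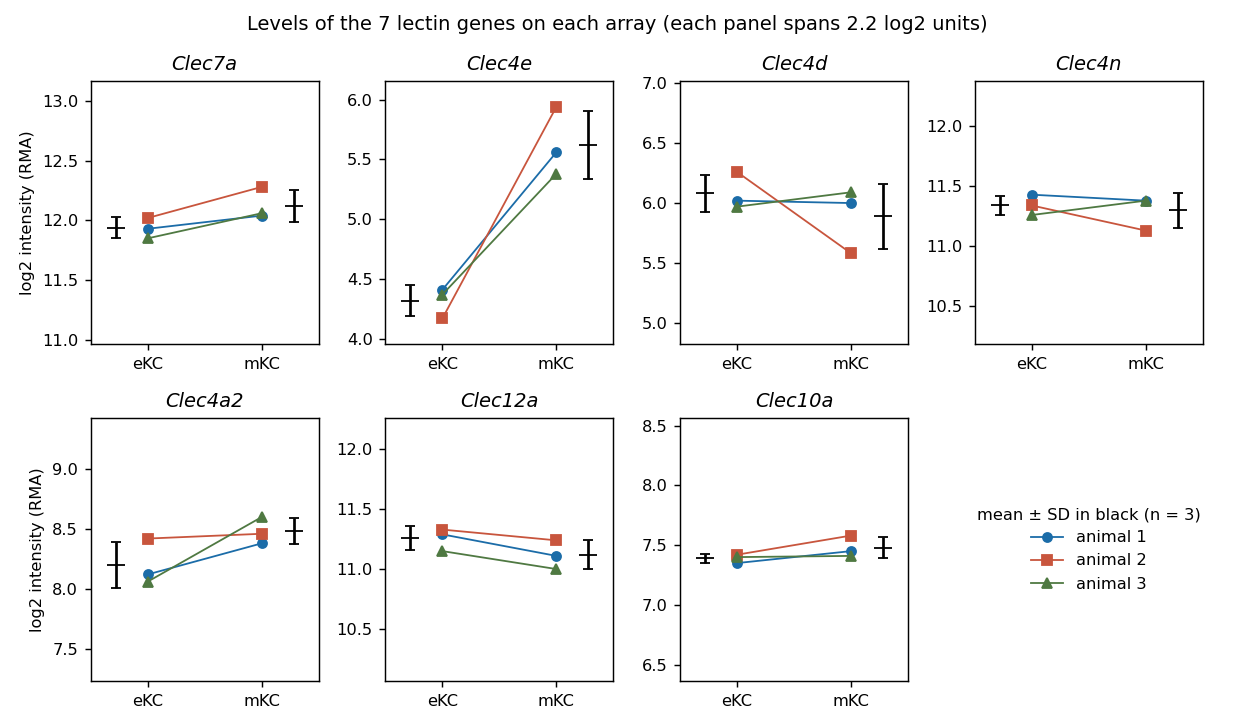
Log2 intensity of each lectin gene on the eKC and mKC arrays of the 3 animals, with lines joining the arrays of an animal and black bars for mean ± SD (n = 3). All panels span the same height on the log2 scale, and Clec4e is the gene whose lines all climb steeply, from 4.17 to 4.41 in eKC to 5.38 to 5.94 in mKC.

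Clec4d (ENSMUSG00000030144), the partner receptor of Clec4e and its neighbour on chromosome 6, did not pass the test. It read 6.02, 6.26 and 5.97 in eKC of animals 1, 2 and 3, and 6.00, 5.58 and 6.09 in mKC. The groups overlapped, and animal 2 stood apart with the highest eKC and the lowest mKC level. Its difference was -0.19 ± 0.166 (SE) with a 95% interval of -0.60 to 0.21 (limma, adjusted p = 0.75). Within animals it was -0.02, -0.68 and 0.12, and without animal 2 the mean difference was 0.05 (limma, adjusted p = 0.91). In animal 2, where Clec4e showed its highest rise of 1.76, Clec4d was lower in mKC by its widest margin. That pattern rests on 1 animal and is not particular to this pair. Animal 2 also held the highest or the lowest difference of each other lectin, such as 0.25 for Clec7a and -0.22 for Clec4n. The cause was not tested.

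The rise of Clec4e exceeded the difference of Clec4d in each animal, by 1.16, 2.44 and 0.90 in animals 1, 2 and 3. Against Clec7a the excess was 0.81 to 1.51 and against Clec4n 0.90 to 1.98. Against the inhibitory receptors it was 0.47 to 1.72 for Clec4a2 and 1.16 to 1.86 for Clec12a, and against Clec10a it was 1.01 to 1.61. All 6 comparisons had the same sign in 3 of 3 animals. Clec4e was set against the others because it had passed in these same data, and all 6 comparisons share it. Its lowest difference within an animal, 1.01, lay above the highest of any other lectin, 0.54 for Clec4a2. The shared sign follows from this and adds no evidence of its own. An exact two-sided permutation test that turns the signs of the 3 animals gave p = 0.25 for each, also after Benjamini-Hochberg adjustment over the 6, which is the smallest p that 3 animals allow. This permutation test was not planned and cannot reach 0.05 with 3 animals, so no conclusion is drawn from it.

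Promoter sequence is shown for Clec4e, which rose, for its neighbour Clec4d and for Clec12a, which did not pass. Each window runs from 250 bases before the annotated start to 50 after it, 5′ to 3′ on the strand of the gene, and was taken from RefSeq on GRCm38.p6. The table of promoters held 5 of the 7 genes, without Clec4n and Clec10a. Capitals mark matches, on both strands, to 4 short motifs chosen with the sequences in view. These were GAGGAA, a core of PU.1, the factor that sets up macrophage identity, TTGCNNAA for C/EBP factors, TGANTCA for AP-1 and TATAAA for the TATA box. In mouse macrophages Clec4e is known as a target of a C/EBP factor.
Clec4e, minus strand, chr6:123289822-123290121: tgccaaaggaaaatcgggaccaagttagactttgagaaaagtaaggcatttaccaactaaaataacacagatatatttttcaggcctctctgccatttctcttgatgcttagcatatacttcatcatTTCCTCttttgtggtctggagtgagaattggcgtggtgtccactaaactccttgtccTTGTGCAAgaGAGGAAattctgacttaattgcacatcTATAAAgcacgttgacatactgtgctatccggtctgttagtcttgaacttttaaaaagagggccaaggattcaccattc
Clec4d, plus strand, chr6:123261857-123262156: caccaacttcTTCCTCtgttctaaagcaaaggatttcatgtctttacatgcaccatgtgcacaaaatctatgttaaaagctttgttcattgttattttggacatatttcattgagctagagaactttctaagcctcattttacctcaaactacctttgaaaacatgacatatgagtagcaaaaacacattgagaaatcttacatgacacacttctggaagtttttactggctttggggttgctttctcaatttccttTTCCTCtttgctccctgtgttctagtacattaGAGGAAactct
Clec12a, plus strand, chr6:129349994-129350293: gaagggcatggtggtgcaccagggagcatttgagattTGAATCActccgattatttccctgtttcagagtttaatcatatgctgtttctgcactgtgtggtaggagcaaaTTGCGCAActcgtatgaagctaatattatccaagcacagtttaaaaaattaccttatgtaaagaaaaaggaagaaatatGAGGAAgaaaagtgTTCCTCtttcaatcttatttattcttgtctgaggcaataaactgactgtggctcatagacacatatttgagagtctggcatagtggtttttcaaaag

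In the Clec4e window, a C/EBP match on the strand opposite to the gene lay from -66 to -59, counted from the annotated start. A match on the opposite strand is printed as the strand of the gene reads. A PU.1 core on the strand of the gene lay from -56 to -51. A second PU.1 core, on the opposite strand, lay from -123 to -118, and a TATA match from -29 to -24. No capitals of different motifs overlapped in this window. The Clec4d window held 3 PU.1 cores, of which only that from -240 to -235 lay before the start, and no match to the other motifs. The core before the start and that from 8 to 13 were on the opposite strand. The Clec12a window held a C/EBP match from -140 to -133, which reads the same on both strands, and an AP-1 match from -213 to -207. It also held PU.1 cores from -61 to -56 and, on the opposite strand, from -47 to -42. The first of the Clec7a windows, which differ by a few bases in their start, held a PU.1 core from -96 to -91 and, on the opposite strand, a TATA match from 43 to 48, and the Clec4a2 window an AP-1 match from 32 to 38 and a TATA match from -161 to -156.

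Over the 32851 windows of this length in the table, 28.3% held the PU.1 core, 10.8% the C/EBP motif, 7.81% the AP-1 motif and 13.6% the TATA motif. Both the PU.1 core and the C/EBP motif were found in 2.92% of all windows and, among the 5 lectins with a window, in Clec4e and Clec12a. The motifs were chosen with the lectin sequences in view, and the lectins are counted as genes rather than windows. The shares over all windows are therefore no test of the lectins. Whether these motifs bear on the levels of the lectins was not tested. A match describes letters only and does not show that a factor binds there.

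**Figure D2:**
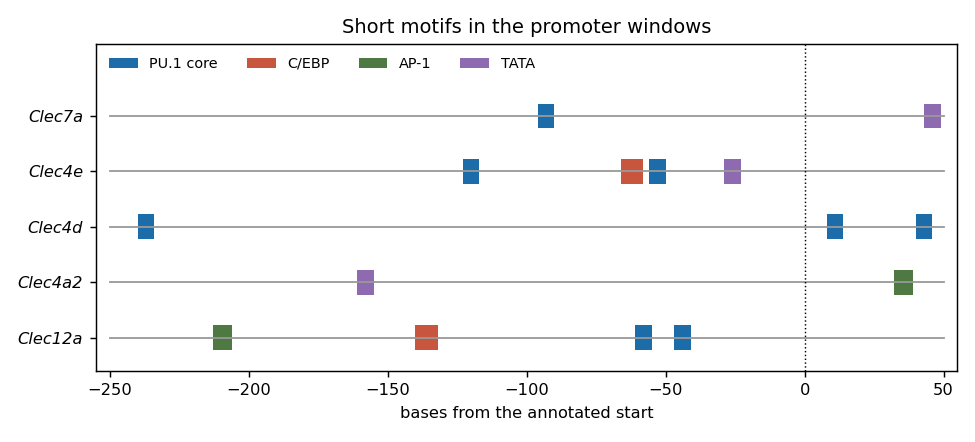
Matches to 4 short motifs in the promoter windows of 5 lectin genes, along the distance in bases from the annotated start (dotted line), with 1 colour per motif and 1 window per gene. Clec4e and Clec12a are the genes with both a C/EBP match and PU.1 cores, and Clec4e holds the TATA match nearest before the start.

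Clec7a (ENSMUSG00000079293), the beta-glucan receptor, was among the brightest genes on every array, with at least 99.2% of all genes reading lower. Its levels were 11.93, 12.02 and 11.85 in eKC of animals 1, 2 and 3, and 12.04, 12.28 and 12.06 in mKC. The groups did not overlap, though the gap between the highest eKC and the lowest mKC array was small. The difference of 0.19 ± 0.0923 (SE) had a 95% interval of -0.04 to 0.41 and did not pass (limma, adjusted p = 0.52). Groups that do not overlap were found for 17.7% of all genes, and for 8.91% with mKC higher. Among the lectins, 2 of 7 had such groups, Clec7a and Clec4e, both with mKC higher.

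Clec4n (ENSMUSG00000023349), the mannan receptor that signals through the Fc receptor gamma chain, was bright in both populations. It read 11.43, 11.34 and 11.26 in eKC and 11.38, 11.13 and 11.38 in mKC of animals 1, 2 and 3. The groups overlapped, and the mKC array of animal 2 was the lowest of the 6. The difference was -0.05 ± 0.104 (SE) with a 95% interval of -0.30 to 0.20 (limma, adjusted p = 0.92), and without animal 2 it was 0.04 (limma, adjusted p = 0.94).

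The inhibitory receptors Clec4a2 (ENSMUSG00000030148) and Clec12a (ENSMUSG00000053063) did not pass the test. Clec4a2 read 8.12, 8.42 and 8.06 in eKC and 8.38, 8.46 and 8.60 in mKC of animals 1, 2 and 3. The groups overlapped because the eKC array of animal 2 exceeded the mKC array of animal 1, and the differences within animals spread from 0.04 in animal 2 to 0.54 in animal 3. The mean difference of 0.28 ± 0.121 (SE) had a 95% interval of -0.01 to 0.57 (limma, adjusted p = 0.45). Clec12a read 11.29, 11.33 and 11.15 in eKC and 11.11, 11.24 and 11.00 in mKC. It was lower in mKC in each animal, by between -0.09 and -0.19, but the groups overlapped. Its difference was -0.14 ± 0.0903 (SE) with a 95% interval of -0.36 to 0.08 (limma, adjusted p = 0.64).

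Clec10a (ENSMUSG00000000318), the receptor for galactose-type sugars, varied least of the 7 over the 6 arrays. It read 7.35, 7.42 and 7.40 in eKC and 7.45, 7.58 and 7.41 in mKC of animals 1, 2 and 3. The groups overlapped, and the difference within animals ran from 0.00 in animal 3 to 0.16 in animal 2. The mean difference was 0.09 ± 0.0925 (SE) with a 95% interval of -0.14 to 0.31 (limma, adjusted p = 0.82).

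**Figure D3:**
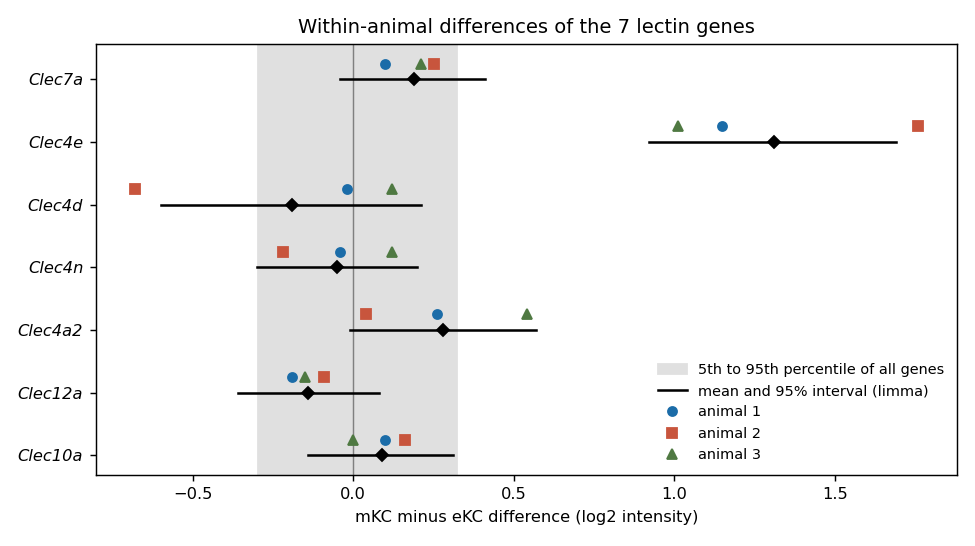
Differences between mKC and eKC (log2 intensity) of each lectin gene, with coloured symbols for the 3 animals, diamonds and lines for the mean and its 95% interval from limma, and a grey band for the 5th to the 95th percentile of all genes (-0.297 to 0.324). The interval of Clec4e, 0.92 to 1.69, lies outside the band, while the intervals of the other 6 genes include 0.

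The 95% intervals of the 6 lectins that did not pass, which are not adjusted for their number, reached from -0.60 for Clec4d to 0.57 for Clec4a2. On the scale of the arrays, these bounds are 0.662 and 1.49 of the eKC level, so each interval left out a doubling and a halving. Changes within these bounds could not be told from none with 3 animals. The direction was the same in all 3 animals for 5 of the 7 lectins, with Clec7a, Clec4e, Clec4a2 and Clec10a higher and Clec12a lower in mKC, where 33.0% of all genes kept 1 direction. The count takes any difference above or below 0, and that of Clec10a in animal 3 rounds to 0.00, so its direction there is not a measured difference.

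Variation beyond the animal and the population was read from the moderated SD. With 2 residual degrees of freedom and 4.21 added from all genes, each SD is uncertain. The SDs of the lectins were not compared by a test. The moderated SD from limma was highest for Clec4d, at 0.203, and for Clec4e, at 0.194, against a median of 0.129 over all genes. A higher SD than these was found for 6.93% and 8.57% of all genes. The lowest values were 0.111 for Clec12a and 0.113 for both Clec7a and Clec10a. Clec4a2 lay at 0.148 and Clec4n at 0.128. Clec4d and Clec4e lay below the upper quartile of every array (7.37 to 7.48). Clec10a, at 7.35 to 7.58, lay near that quartile but had the same moderated SD as the far brighter Clec7a. The part of intensity in the spread of the lectins was not tested.

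**Figure D4:**
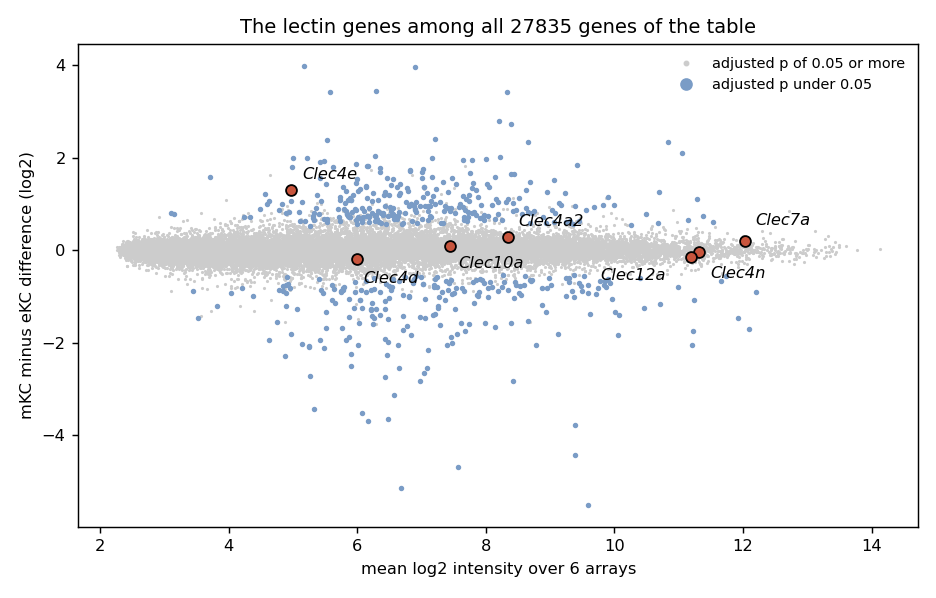
Difference between mKC and eKC (log2) against the mean log2 intensity over 6 arrays for all 27835 genes (grey, or blue where the adjusted p was under 0.05), with the 7 lectins as red points. Clec4e lies among the dim genes at a difference of 1.31, and the other 6 lie between -0.19 and 0.28.

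The likeness of other genes to Clec4e was measured as the root mean square distance between log2 values over the 6 arrays, each gene centred on its own mean. The nearest of the 27834 other genes was ENSMUSG00000028037, at a distance of 0.182. Its level was 10.07 ± 0.0460 in eKC and 11.33 ± 0.0409 in mKC (SD, n = 3). The next was ENSMUSG00000033450, at 0.184, with 9.33 ± 0.0973 in eKC and 10.48 ± 0.0897 in mKC. The sources used here pair neither identifier with a symbol. Both were higher in mKC by a like amount, 1.26 and 1.15, as this measure of likeness requires. Among the lectins, Clec7a at 0.580 and Clec4a2 at 0.581 were the nearest to Clec4e, in places 2411 and 2463 of the ranking. Clec4d was the farthest at 0.831, in place 26125. These distances largely restate the differences between mKC and eKC given above.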

How the data were processed

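RNA from 50000 sorted cells per sample was labelled from 2 ng of total RNA with an amplifying kit, per the labels' protocols. Per the submitters' processing notes the deposited values were made with RMA, which corrects background, normalizes arrays by quantiles and summarises probes per gene. These deposited intensities ran from 2.09 to 14.2 and were read as log2 values on that ground, since no source used here states the base of the logarithm, the version of the software or how probes were grouped. Array medians lay between 5.21 and 5.28. RMA compresses differences of dim genes.

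From these values a linear model with population and animal was fitted to all 27835 genes with limma 3.58.1 in R 4.3.3 (lmFit, eBayes). It had 2 residual degrees of freedom, to which 4.21 were added from all genes. Tests were two-sided, with Benjamini-Hochberg adjustment over all genes and a threshold of 0.05, and simulated data with known differences were used to test the fit. The animal block follows from the design text, which describes pairs from the same mice; deviations of same-animal arrays from their group means correlated at -0.0323, 0.0258 and -0.0188. The number of animals limits the precision.

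The lectins and the lists were chosen with earlier results of these data known. Rule for named genes: all 7 lectins, and the 2 genes whose profile is most like that of each lectin past the threshold. The names of the 7 come with their identifiers. The reference table, with 49997 genes, holds an Ensembl identifier for 0 of them, so the lists of related lectins, of Syk and Card9 signalling, of the genes used in the sort and of Kupffer and other cell types were not analysed here, and the labelled cell type was not checked against its markers. Whether other cell types contributed to the lectin values was not tested.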

Additional observations from a re-analysis of the deposited data

How the results depend on the processing

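The rise of Clec4e (1.31) kept its direction in all 11 alternatives that gave it a value, and passed in 10 of them, with adjusted p-values in limma from 0.0021 to 0.062. The threshold of 0.1 is 1 of the 11 and rereads the main fit, so Clec4e could not fail it. Without the replicate block, so that arrays were not paired by animal, it was again 1.31 (limma, adjusted p = 0.0035), and the block changed no call of the other 6 lectins. With 1 animal left out in turn, which leaves 1 residual degree of freedom, the difference ran from 1.08 to 1.45, and the number of lectins called higher in mKC from 0 to 1. That number was also 0 with the lowest 50% of genes left out, because Clec4e was then not tested. It was 1 under quantile normalization, median centring, the lowest 30% left out, array weights, robust estimation with an intensity trend, the animal as a random effect and a threshold of 0.1. The number called lower was 0 throughout these 12 alternatives. For the other 6 lectins, 70 of 72 values kept their direction and their side of the threshold, and the lowest adjusted p in limma was 0.11. The 72 include the main fit of each lectin reread at the threshold of 0.1, where the direction cannot change. The exceptions were Clec4d and Clec4n without animal 2, at 0.05 and 0.04 in place of -0.19 and -0.05, both far from the threshold, and the cause was not tested. With each animal left out in turn, Clec4d ran from -0.35 to 0.05 and Clec4n from -0.13 to 0.04. The planned counts over related gene lists were not run. Signal over background is not part of the table, so dim levels, those of Clec4e above all, have no known floor.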
